A study of Homo sapiens with 12 samples.

Results

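The ribosome's protein parts were followed in HEL cells after knockdown of JAK2. Genes were taken whose single symbol in the platform annotation is RPL or RPS with a number (or RPLP0 to RPLP2, or RPSA) for the cytosolic ribosome, or starts with MRPL or MRPS for the mitochondrial ribosome. The RPS6K kinases and pseudogenes were left out. Of 11940 genes measured, 125 met the rule: 73 cytosolic genes, 47 of the large and 26 of the small subunit, and 52 mitochondrial genes, 31 with the prefix MRPL and 21 with MRPS. The prefix does not always name the mitochondrial subunit: MRPS18A and MRPS30 are proteins of the large one. RPLP0, RPSA and RPS27A were not analysed here. HEL is an established human erythroleukaemia line, and the labels give it as a JAK2-mutant line. All cells carried a lentivirus in a puromycin-selectable vector: an shRNA (short hairpin RNA) against JAK2, Jak2-9 or Jak2-10, an shRNA against luciferase (Luc), or a GFP control that the labels call both a vector and an shRNA control. Each of the 4 groups had 3 one-colour arrays. Nothing in the labels says that the replicates of a group were grown separately, so the p-values reflect how much these arrays vary, and that variation may be technical.

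The cytosolic ribosome translates all messages of the nucleus, and the mitochondrial ribosome translates the few messages of the mitochondrial genome, which encode core subunits of the respiratory chain. The genes of both sets lie in the nucleus. Messages of cytosolic ribosomal proteins are among the most abundant of a growing cell and are known for a 5′ terminal oligopyrimidine tract (5′ TOP), a first base C followed by an unbroken run of C and T, through which mTOR signalling controls their translation. Erythroid cells are known to be sensitive to the loss of single cytosolic ribosomal proteins, as in Diamond-Blackfan anaemia and in the 5q- syndrome, where RPS14 is lost from a chromosome copy.

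The start sites of both sets are shown because they differ in this tract, a feature that the rule did not use. Each window holds 15 bases before and 15 bases from the annotated gene start on (RefSeq, GRCh38.p14, sense strand, 5′ to 3′). Capitals mark the first transcribed base and, where that base is C, the unbroken run of C and T from it.
RPL37A: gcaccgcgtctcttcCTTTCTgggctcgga
RPS19: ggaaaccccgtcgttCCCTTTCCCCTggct
RPS14: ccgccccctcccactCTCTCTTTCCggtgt
RPS6: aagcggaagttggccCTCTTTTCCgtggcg
MRPL4: ttcctgcaccggctcGtcggaggcgggacc
MRPS18A: acgagaggtcagggtAggtttttgaagatg
MRPS18B: agttgcctttccgtcAattcctgtcctggg
MRPS6: gcgctctcggaccgtGctttcgccgcctgg
MRPS2: cgcgtgggccgggttCCTCTgcgggtgggt
The windows lie at chr2:216498829-216498858 (RPL37A, plus strand), chr19:41860240-41860269 (RPS19, plus), chr5:150449725-150449754 (RPS14, minus) and chr9:19380222-19380251 (RPS6, minus). Those of the mitochondrial set lie at chr19:10251936-10251965 (MRPL4, plus), chr6:43687777-43687806 (MRPS18A, minus), chr6:30617825-30617854 (MRPS18B, plus), chr21:34073563-34073592 (MRPS6, plus) and chr9:135499950-135499979 (MRPS2, plus).

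Gene starts were found in the RefSeq table for 59 of the 73 cytosolic and 43 of the 52 mitochondrial genes. A start at C followed by at least 4 more C or T was present in 40 of the 59 cytosolic genes (67.8%), in 3 of the 43 mitochondrial genes (6.98%) and in 4% of all 24882 gene starts. MRPS2, a small subunit protein, is shown because it is one of those 3 exceptions. A start at A or G was found in 93% of the mitochondrial genes and 22% of the cytosolic genes, against 77% of all. The core letters of the ETS family motif, TTCCGG, occurred on either strand of the 300-base promoter window at similar rates in both sets: in 57.6% of cytosolic and 55.8% of mitochondrial genes, against 17.6% of all promoters. The YY1 core AAGATGGC was present in 10.2% of cytosolic and 27.9% of mitochondrial promoters, against 3.09% of all. The TATA box TATAAA was found in 8.47% and 2.33%, against 12.2% of all. Both strands were searched, and a match to AAGATGGC can share its AA with a match to TTCCGG on the opposite strand. A match describes letters in the window and not a bound site.

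The arrays of each group correlated at a mean of 0.986 or above, and Jak2-9 replicate 1 was the lowest, at 0.986 against 0.992 for the other Jak2-9 arrays and 0.996 to 0.998 for the remaining arrays. Weights estimated by limma from the spread of all genes were 0.124 for Jak2-9 replicate 1 and 0.355 for Jak2-10 replicate 3, and between 0.924 and 1.97 for the other arrays. For the set medians of each shRNA and for some genes, values without these arrays are also given. JAK2, the target of both shRNAs, fell to 63.1% of control over both knockdown groups (log2 fold change -0.67 ± 0.11, SE; limma, adjusted p = 0.00400). It fell to 59.3% with Jak2-9 (limma, adjusted p = 0.00768) and was at 67.0% with Jak2-10, which missed the threshold (adjusted p = 0.0824). JAK2 read 9.37 on Jak2-9 replicate 1, the lowest of the 12 arrays, and 9.89 and 10.08 on the other Jak2-9 arrays. HEL cells are known to express erythroid and megakaryocyte genes, and 8 of 8 erythroid and 6 of 6 megakaryocyte markers lay above the median gene, as did 1 of 4 T cell, 0 of 2 B cell, 0 of 4 epithelial and 1 of 4 fibroblast markers. Those exceptions were CD2 (log2 intensity 8.96) and DCN (10.12).

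Cytosolic ribosomal protein probe sets were among the brightest of the array. The median probe set of the cytosolic set had a log2 intensity of 13.99, against 10.02 for the mitochondrial set and 6.28 for all genes. Of the 73 cytosolic genes 67 were among the brightest 5% of genes, and 59 of the 100 brightest genes were cytosolic ribosomal proteins, while none of the mitochondrial set was. Brightness is a property of the probes as well as of the message, so it gives no order of abundance among genes. RPL23A, RPL4 and RPL37A, all of the large subunit, had the brightest cytosolic probe sets, and MRPL3, MRPL57 and MRPL18 the brightest mitochondrial ones. At the dim end lay RPL3L and RPL10L, tissue-restricted paralogues of RPL3 and RPL10, together with RPS14, and among mitochondrial genes MRPL41, MRPS18C and MRPL52. RPS14 had 2 probe sets, with mean log2 intensities of 4.68 and 4.31, both below the median gene, so the arrays gave little information on it. RMA, the authors' normalization, gives each array the same distribution of probe intensities. A shift common to most of the brightest probe sets would be reduced by that step, and differences are therefore relative to the rest of each array.

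Cytosolic values varied less than those of most genes on the control arrays. The median standard deviation of a cytosolic gene over the 6 control arrays was 0.05 on the log2 scale, against 0.08 for a mitochondrial gene and 0.11 for all genes. Within Jak2-9 it was 0.08, 0.20 and 0.17, and within Jak2-10 0.11, 0.10 and 0.12, for cytosolic, mitochondrial and all genes. RPL4, a large subunit protein at the exit tunnel, read 14.94, 14.92 and 14.92 with GFP, 14.93, 14.92 and 14.92 with Luc, 14.94, 14.91 and 14.95 with Jak2-9, and 14.96, 14.94 and 14.81 with Jak2-10. RPS6, the small subunit protein phosphorylated by S6 kinases, read 14.44, 14.37 and 14.45 with GFP, and 14.44, 14.47 and 14.44 with Luc. It read 14.39, 14.41 and 14.45 with Jak2-9 and 14.49, 14.46 and 14.32 with Jak2-10. In both genes the ranges of controls and knockdowns overlapped, and Jak2-10 replicate 3 was the lowest of the 12 arrays.

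The comparison of both JAK2 shRNAs with both controls asks which ribosomal messages change when JAK2 is reduced. No cytosolic and no mitochondrial ribosomal protein gene passed the threshold (limma, adjusted p under 0.05 over 11940 genes), where 1.83% of all genes did. At an unadjusted p under 0.05 the same limma test gave 1 of 73 cytosolic genes and 10 of 52 mitochondrial genes, 9 of the 10 with higher values. These are 1.37% and 19.2% of the sets, against 16.3% of all genes, so the mitochondrial share is near that of all genes. The median log2 fold change was 0.02 over the cytosolic set, 0.12 over the mitochondrial set and 0.04 over all genes. Values above 0 were found in 47 of 73 cytosolic and 46 of 52 mitochondrial genes, against 7580 of 11940 genes. The 95% interval lay within 1.5-fold of control in either direction for all 73 cytosolic and all 52 mitochondrial genes, and for 11370 of all genes. In brightness 69 of the 73 and 48 of the 52 lay above the median gene. For the dimmer ones the interval says little about the message. In bulk RNA, fewer cells of a type and less RNA per cell cannot be told apart.

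**Figure D1:**
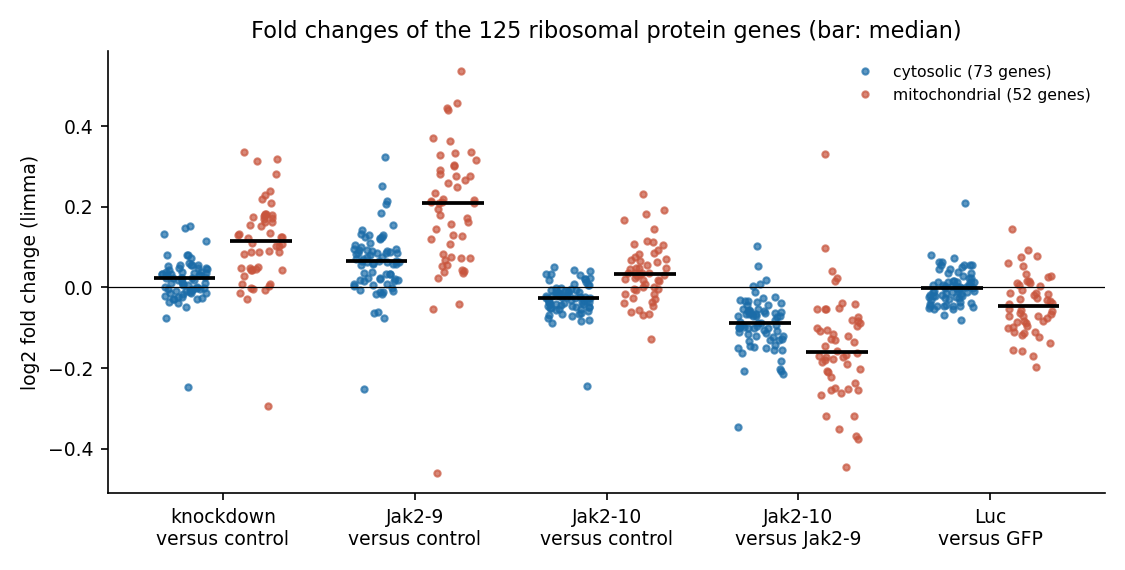
Log2 fold change (limma) of each of the 125 ribosomal protein genes in 5 comparisons, with 1 point per gene and a bar at the median of each set. The cytosolic points have medians of 0.07 in Jak2-9 versus control and -0.09 in Jak2-10 versus Jak2-9, and the mitochondrial points have a median of 0.21 in Jak2-9 versus control and 0.03 in Jak2-10 versus control.

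Among cytosolic genes the lowest p-values were those of RPS14, a small subunit protein, and RPL8, a large subunit protein near the peptidyl transferase centre. RPS14 read 4.66, 4.70 and 4.74 with GFP and 4.85, 4.996 and 4.89 with Luc. With Jak2-9 it read 4.51, 4.75 and 4.40, and with Jak2-10 4.37, 4.49 and 4.83. Knockdown and control ranges overlapped, and the log2 fold change was -0.25 ± 0.09 (SE; limma, adjusted p = 0.187). Its other probe set gave 0.01 ± 0.08 (SE). RPL8 had a log2 fold change of 0.13 ± 0.07 (SE; limma, adjusted p = 0.350).

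Of 20 Diamond-Blackfan and 5q genes listed, 18 were measured, and none passed the threshold in any of the 5 comparisons. In the same limma fits 1 of the 18, RPS14 (5.56%), had an unadjusted p under 0.05 in each of knockdown, Jak2-9 and Jak2-10 versus control, against 16.3%, 24.2% and 5.76% of all genes. None of the 18 did in the other comparisons. Their median log2 fold change for knockdown was 0.01, within a range of -0.25 to 0.08. RPS19, a small subunit protein and the gene most often mutated in Diamond-Blackfan anaemia, had 0.04 ± 0.07 (SE). RPL5 and RPL11, which bind MDM2 when ribosome assembly fails, had -0.00 ± 0.06 and -0.05 ± 0.07. RPLP1 and RPLP2, the acidic proteins of the stalk that recruits elongation factors, had 0.02 ± 0.06 and 0.01 ± 0.07, and RPS6 had -0.01 ± 0.06.

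Among mitochondrial genes MRPL4 and MRPS18A, both of the large subunit and the latter one of 3 paralogues named S18, had the lowest p-values for knockdown. MRPL4 read 10.34, 10.41 and 10.33 with GFP, 10.50, 10.35 and 10.45 with Luc, 11.23, 10.62 and 10.66 with Jak2-9, and 10.72, 10.68 and 10.49 with Jak2-10. Each array but Jak2-10 replicate 3 lay above the controls, and the log2 fold change was 0.34 ± 0.10 (SE; limma, adjusted p = 0.122). With array weights it was 0.27 (limma, adjusted p = 0.0168), in a fit where 269 of all genes rose and 271 fell, against 52 and 166 without weights. MRPS18A had 0.32 ± 0.10 (SE; limma, adjusted p = 0.133). Its paralogue MRPS18B had 0.14 ± 0.07 (SE; limma, adjusted p = 0.327), and MRPS18C was among the dimmest mitochondrial probe sets.

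With Jak2-9 alone, no cytosolic gene and 1 mitochondrial gene, MRPL2, passed the threshold (limma), against 3.07% of all genes. MRPL2, a large subunit protein close to the catalytic centre, read 8.58, 8.80 and 8.36 with GFP and 8.46, 8.26 and 8.44 with Luc. With Jak2-9 it read 9.39, 9.03 and 8.65, and with Jak2-10 8.64, 8.55 and 8.54. Jak2-9 replicates 1 and 2 lay above all controls, while replicate 3 lay below the highest control. MRPL2 rose with Jak2-9 by 0.54 ± 0.14 on the log2 scale (SE; limma, adjusted p = 0.0491). The call was lost when any of 11 of the 12 arrays was left out and kept only without Jak2-9 replicate 3, with adjusted p between 0.00681 and 0.207 (limma). Without Jak2-9 replicate 1 the log2 fold change was 0.35 (limma, adjusted p = 0.207).

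The next mitochondrial genes missed the threshold by little. MRPS2, a small subunit protein, had a log2 fold change of 0.46 ± 0.12 (SE; limma, adjusted p = 0.0527), MRPS18A 0.45 ± 0.12 (adjusted p = 0.0540) and MRPL4 0.44 ± 0.12 (adjusted p = 0.0580). With an intensity trend in limma's prior variance MRPS18A and MRPL4 passed (adjusted p = 0.0430 and 0.0359). Without Jak2-9 replicate 1 the log2 fold change of MRPL4 was 0.24 (limma, adjusted p = 0.232). That of MRPS18A lay between 0.29 and 0.56 when single arrays were left out. MRPL23, at the exit of the mitoribosomal tunnel, had 0.34 ± 0.10 (limma, adjusted p = 0.0738), and MRPS12, a protein of the decoding site, 0.28 ± 0.09 (adjusted p = 0.0886). MRPS2, MRPL23 and MRPS12 are named with their values in view. At unadjusted p under 0.05 the limma fit gave 25 of 52 mitochondrial genes, 24 of them higher, and 6 of 73 cytosolic genes, 5 of them higher. These are 48.1% and 8.22% of the sets, against 24.2% of all genes, of which 2029 were higher and 862 lower. The lowest cytosolic p-values were those of RPL39L, a paralogue of RPL39 best known from testis (0.32 ± 0.12, SE; limma, adjusted p = 0.123) and RPL8 (0.21 ± 0.08, adjusted p = 0.142).

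**Figure D2:**
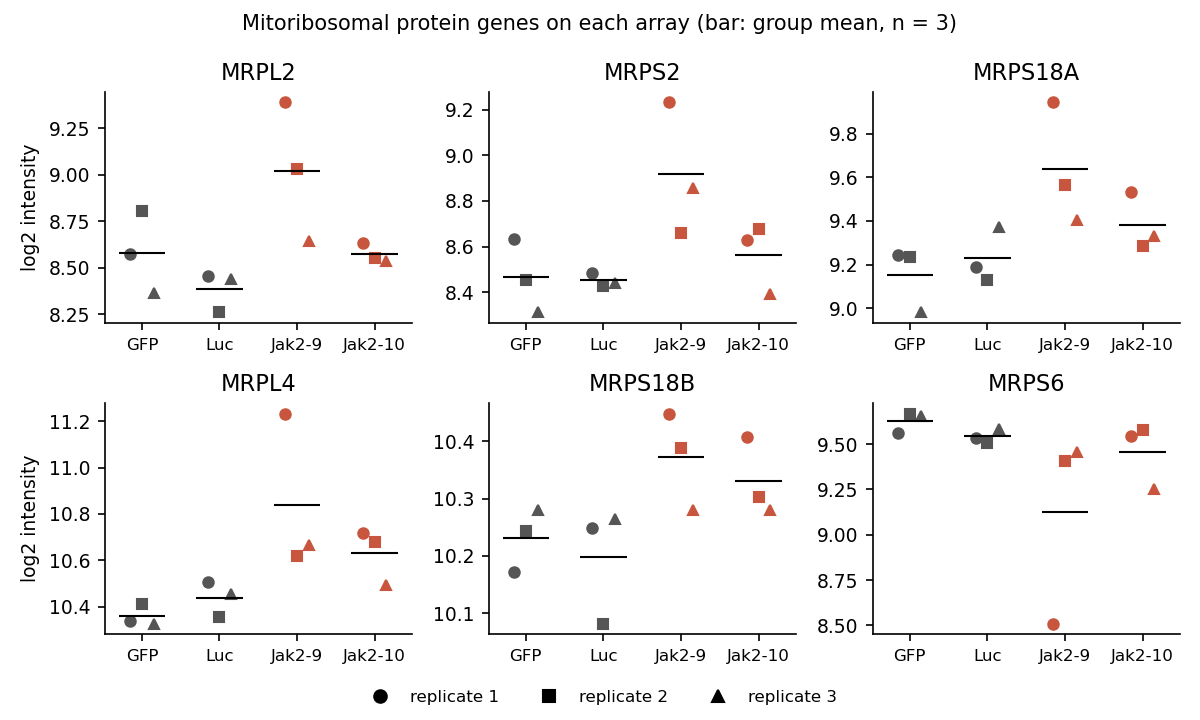
Log2 intensity of 6 mitoribosomal protein genes on each array, with markers for the replicate number, controls in grey, knockdowns in red and a bar at each group mean. Jak2-9 replicate 1 is the highest of the 12 arrays for MRPL2, MRPS2, MRPS18A, MRPL4 and MRPS18B and the lowest for MRPS6, at 8.51.

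The shift of the mitochondrial set with Jak2-9 was carried in large part by replicate 1. The median difference from the mean of the controls over the 52 mitochondrial genes was 0.42 on Jak2-9 replicate 1, 0.11 on replicate 2 and 0.08 on replicate 3. The cytosolic median on these arrays was 0.14, 0.01 and 0.03, and that of all genes 0.10, 0.04 and 0.03. On the control arrays the mitochondrial median lay between -0.07 and 0.03 and the cytosolic median between -0.04 and 0.02. On all 3 Jak2-9 arrays the mitochondrial median thus lay above the control arrays. The control arrays are set against their own mean, which holds their medians near 0, so their range is a description and not a test. Fitted log2 fold changes with Jak2-9 had a median of 0.21 for mitochondrial, 0.07 for cytosolic and 0.06 for all genes. Without replicate 1 these medians were 0.09, 0.03 and 0.04, and no mitochondrial gene passed (limma). At unadjusted p under 0.05 that fit gave 6 of 52 mitochondrial genes (11.5%), against 12.6% of all genes. With the arrays quantile normalized again the cytosolic median was 0.00 and the mitochondrial median 0.15. All these medians are of the brightest probe set per gene. The 14 other probe sets of mitochondrial genes, with a median log2 intensity of 6.93, did not show the shift. Their median log2 fold change was -0.002 with Jak2-9, -0.07 with knockdown and -0.06 with Jak2-10. Over all probe sets it was 0.04, 0.03 and 0.02. The 3′ minus 5′ log2 difference of the ACTB control probe sets, a measure of RNA quality, lay between 0.19 and 0.38 on control arrays. It was 0.42 on Jak2-9 replicate 1, the highest of the 12, and between 0.13 and 0.18 on 4 other knockdown arrays, below each control. The same difference for GAPDH lay between -0.11 and -0.00 on controls and was 0.09 on Jak2-9 replicate 1.

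All 6 marker lists had medians above 0 with Jak2-9. The 8 erythroid markers had a median log2 fold change of 0.29, with 1 past the threshold (limma). The 6 megakaryocyte markers had 0.30, also with 1 past it, against 3.07% of all genes. Medians of the T cell, B cell, epithelial and fibroblast markers were 0.135, 0.095, 0.098 and 0.007, against 0.06 for all genes, and none of these passed (limma). Without Jak2-9 replicate 1 the erythroid and megakaryocyte medians were 0.22 and 0.23, and none of their markers passed (limma). At unadjusted p under 0.05 that fit gave 4 of 8 erythroid markers (50%) and 1 of 6 megakaryocyte markers (16.7%), against 12.6% of all genes. With all arrays the limma fit gave 6 erythroid (75%) and 4 megakaryocyte markers (66.7%), all higher, against 24.2% of all genes. The summed erythroid markers read 15.39 to 15.56 on the log2 scale on controls and 15.49 to 15.67 on knockdowns, and the megakaryocyte markers 11.3 to 11.55 and 11.23 to 11.77. The part of RNA quality and of these markers in the mitochondrial shift was not tested.

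**Figure D3:**
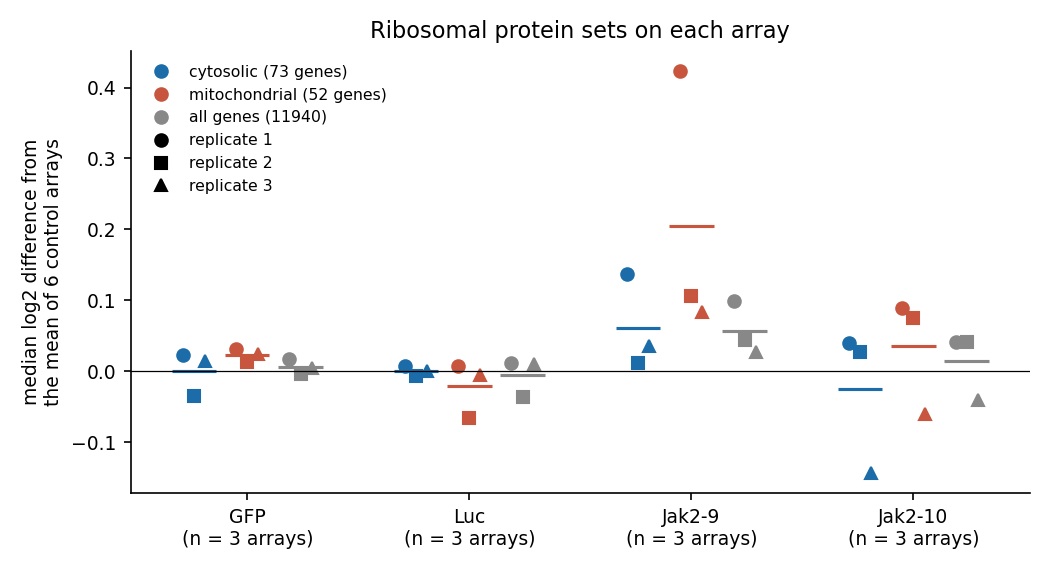
Median log2 difference from the mean of the 6 control arrays on each array, for the cytosolic set, the mitochondrial set and all genes, with a bar at the mean of each group of 3 arrays. The mitochondrial median reaches 0.42 on Jak2-9 replicate 1, and the cytosolic median is lowest on Jak2-10 replicate 3, at -0.14.

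With Jak2-10 no gene of either set passed the threshold (limma), against 0.687% of all genes. The same fit gave 1 cytosolic gene, RPS14, and 0 mitochondrial genes at unadjusted p under 0.05, against 5.76% of all genes. RPS14 had -0.24 ± 0.11 and RPS25, another small subunit protein, -0.09 ± 0.08 (SE). MRPL4 had 0.23 ± 0.12 (SE; limma, adjusted p = 0.929) and MRPL44, a large subunit protein of the RNase III fold, 0.18 ± 0.11 (adjusted p = 0.967). The median log2 fold change was -0.03 over cytosolic genes, of which 14 of 73 lay above 0, and 0.03 over mitochondrial genes, of which 37 of 52 did, against 6753 of 11940 genes. The sign of the cytosolic median rested on replicate 3. That array had a cytosolic median of -0.14, with 61 of 73 cytosolic genes (83.6%) below all 6 controls, against 18 of 52 mitochondrial genes (34.6%) and 30.45% of all genes, while replicates 1 and 2 had 0.04 and 0.03. Without Jak2-9 replicate 1 and Jak2-10 replicate 3 the cytosolic median was 0.03 and the mitochondrial median 0.08.

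Over all knockdown arrays the mitochondrial median exceeded the cytosolic median by 0.05 to 0.29 on each of the 6 arrays, and by -0.06 to 0.05 on the 6 control arrays. The ranges meet at 0.05: Jak2-10 replicate 2 had 0.0483 and the highest control, of the GFP group, 0.0484. Here too the control arrays are set against their own mean, which narrows their range. The fitted medians of the cytosolic set minus the mitochondrial set were -0.0934 for knockdown, -0.144 for Jak2-9 and -0.0598 for Jak2-10, and 0.0455 for Luc versus GFP. These comparisons share their control arrays, and the size with Jak2-9 was -0.0627 without its replicate 1.

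Separation of the arrays was examined gene by gene. All 3 Jak2-9 arrays lay above all 6 controls for 7 cytosolic genes (9.59%) and 13 mitochondrial genes (25%), against 9.41% of all genes. They lay below all controls for 1 mitochondrial gene, MRPS6, and no cytosolic gene, against 3.8% of all. MRPS6, a small subunit protein, read 9.56, 9.67 and 9.65 with GFP, 9.54, 9.51 and 9.58 with Luc, and 8.51, 9.41 and 9.46 with Jak2-9. With Jak2-10 it read 9.54, 9.58 and 9.25. Jak2-9 replicate 1 stood far below the rest, and the log2 fold change of -0.46 ± 0.17 did not pass (SE; limma, adjusted p = 0.118). The 3 Jak2-10 arrays lay above all controls for MRPS18B and MRPL22 only, against 2.68% of all genes, and below them for no member, against 2.6%. MRPL22 lines the exit tunnel of the mitochondrial large subunit.

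All 6 knockdown arrays lay above all 6 controls for MRPS18B alone among the 125 genes, against 1.2% of all genes, and below them for no member, against 1.51%. MRPS18B read 10.17, 10.24 and 10.28 with GFP and 10.25, 10.08 and 10.26 with Luc. With Jak2-9 it read 10.45, 10.39 and 10.28, and with Jak2-10 10.41, 10.30 and 10.28. The lowest knockdown and the highest control values were equal to 2 decimals. These members are named with their values in view.

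Jak2-10 and Jak2-9 were compared directly to ask whether the shRNAs differ. No gene of either set passed the threshold (limma), and 0% of all genes did. At unadjusted p under 0.05 the limma test gave 2 cytosolic and 8 mitochondrial genes, all lower with Jak2-10, and 1174 of all genes. MRPL2 had -0.45 ± 0.16 (SE; limma, adjusted p = 0.499), and RPL39L -0.35 ± 0.14 (adjusted p = 0.499). Median log2 fold changes were -0.09 for cytosolic, -0.16 for mitochondrial and -0.04 for all genes. Without Jak2-9 replicate 1 both sets had a median of -0.05.

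The 2 controls, Luc and GFP, also differed at no member past the threshold (limma), against 0% of all genes, and at none with an unadjusted p under 0.05, where 229 of all genes were. Median log2 fold changes were -0.00 for the cytosolic and -0.05 for the mitochondrial set. The lowest mitochondrial p-values were those of MRPS22 (-0.16 ± 0.09, SE) and MRPS27 (-0.17 ± 0.11), both small subunit proteins, and the lowest cytosolic ones those of RPS14 (0.21 ± 0.12) and RPS7 (0.08 ± 0.09).

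A different picture came from the dimmer probe sets. The 125 genes had 218 probe sets, and 48 genes had at least 2. When each of 19415 probe sets was tested on its own, 6 of 79 other cytosolic probe sets and 1 of 14 other mitochondrial probe sets fell with knockdown (limma, adjusted p under 0.05), against 2.08% of all probe sets. None of the 125 brightest probe sets did. This fit and its members were chosen after values were seen. All 6 cytosolic ones lay among the 29 with a mean log2 intensity below 8, and 0 of the 50 brighter ones passed for knockdown (limma). Over all probe sets 311 of 13768 below 8 fell in that fit, and 92 of 5647 at 8 or above. At so low a share, 0 of 50 says little about the brighter ones. With Jak2-9, 1 of those 50 fell and 1 rose, against 418 fallen and 283 risen of all 19415 probe sets. The median log2 fold change of those 29 was 0.00, so the falls were of single probe sets.

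RPL37A, a zinc-binding protein of the large subunit, shows the contrast. Its brightest probe set read 14.77, 14.72 and 14.75 with GFP, 14.77, 14.70 and 14.76 with Luc, 14.85, 14.88 and 14.71 with Jak2-9, and 14.80, 14.80 and 14.66 with Jak2-10. Probe set 213459_at read 6.72, 6.80 and 6.72 with GFP and 7.54, 7.20 and 7.16 with Luc. It read 5.11, 5.02 and 5.63 with Jak2-9 and 5.88, 6.10 and 5.67 with Jak2-10. All knockdown arrays lay below all controls at this probe set and overlapped them at the brightest one. Probe set 213459_at fell by 1.46 on the log2 scale, to 36.4% of control (limma, adjusted p = 5.21e-06), while the brightest had a log2 fold change of 0.04 ± 0.06 (SE), not past the threshold.

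RPL17, a large subunit protein of the exit tunnel, gave the same contrast at probe set 214291_at. It read 5.85, 5.74 and 5.88 with GFP, 6.77, 6.94 and 6.35 with Luc, 4.90, 4.72 and 4.94 with Jak2-9, and 4.98, 4.96 and 5.04 with Jak2-10. It fell by 1.33 (limma, adjusted p = 1.87e-06), and its 3 brighter probe sets had log2 fold changes of 0.03, 0.04 and -0.00. The controls themselves differed here, Luc minus GFP 0.86 ± 0.13 (SE; limma, adjusted p = 0.105), a difference that did not pass.

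RPL10, a late-joining large subunit protein, fell by 1.14 at probe set 221989_at (limma, adjusted p = 3.48e-05), with control arrays between 7.01 and 7.87 and knockdown arrays between 5.78 and 6.42. RPL23 fell by 0.72 at 215224_at (limma, adjusted p = 0.00241), with controls between 5.94 and 6.55 and knockdowns between 5.25 and 5.74. Another of its probe sets, 214744_s_at, of mean log2 intensity 8.32, had 0.33 ± 0.09 (SE; adjusted p = 0.0935). The groups did not overlap at these probe sets, and the falls of RPL37A, RPL17, RPL10 and RPL23 passed when any of the 12 arrays was left out. MRPS11 (215919_s_at, -0.62; limma, adjusted p = 0.0250), RPL35A (215208_x_at, -0.39) and RPL5 (210034_s_at, -0.33) overlapped between groups. Their calls were lost when 5, 8 and 8 of the 12 arrays, respectively, were each omitted.

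**Figure D4:**
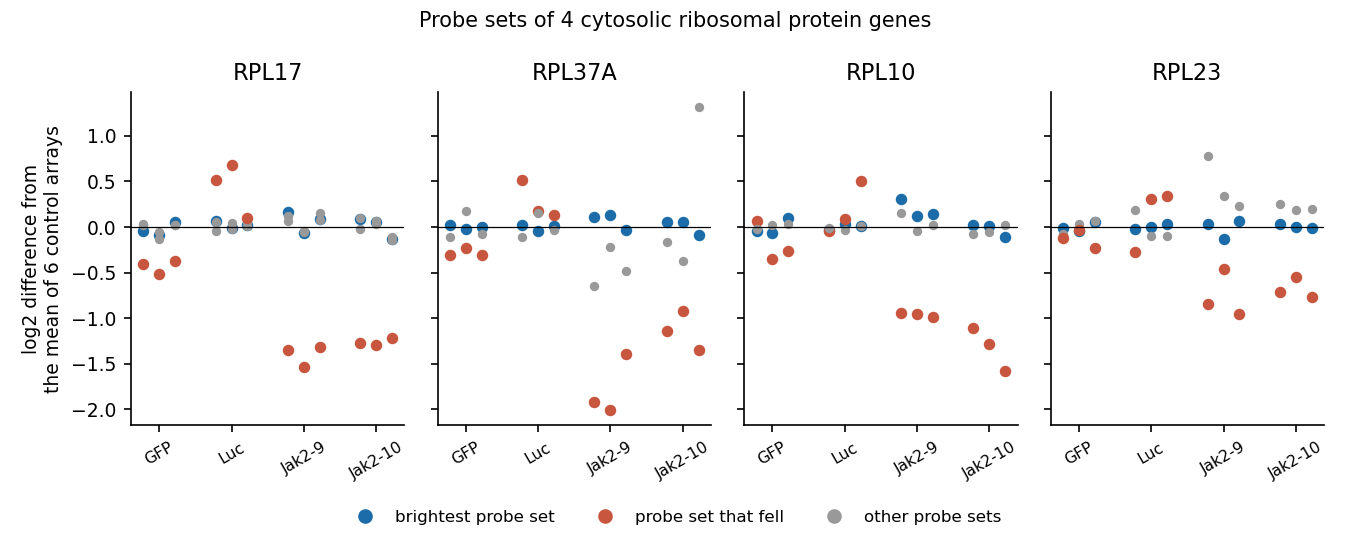
Log2 difference from the mean of the 6 control arrays at each probe set of RPL17, RPL37A, RPL10 and RPL23, with 1 point per array and probe set. The brightest probe set of each gene overlaps between controls and knockdowns, while the dim probe set that fell lies below the controls on all 6 knockdown arrays.

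By shRNA, 5 of the other cytosolic probe sets fell with Jak2-9, against 2.15% of all probe sets, and 5 with Jak2-10, against 1.01% (limma). RPL37A, RPL17, RPL10 and RPL23 were among them in both cases. RPL38 (202028_s_at, -0.61), whose mean log2 intensity of 9.52 sets it among the brighter ones, was the fifth with Jak2-9, and RPL5 (-0.46) with Jak2-10. Of the 79 other cytosolic probe sets 1 rose with Jak2-9, RPL23 at 214744_s_at, by 0.45 (limma, adjusted p = 0.0461). Over all 19415 probe sets 283 rose in that fit. The control probe set for Alu repeats, which lie mostly in introns and between genes, also differed: its log2 intensity was 14.61 ± 0.07 on the control and 14.06 ± 0.10 on the knockdown arrays (SD, n = 6 each). An exact two-sided permutation test gave p = 0.00216, the smallest that 924 arrangements can give. Its part in the falls was not tested. Many processed pseudogenes resemble cytosolic ribosomal protein messages, so reads of near-identical copies are uncertain: 25 of the 73 brightest probe sets carry the suffix that marks probes shared with other sequences, against 4 of 52 mitochondrial ones.

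The array also carries control probe sets for ribosomal RNA, the catalytic part of the ribosome. The 18S probe set of the 5′ end read between 10.15 and 11.53 on control arrays and between 11.95 and 12.58 on knockdown arrays, without overlap. The difference was 1.48 on the log2 scale (exact two-sided permutation test, p = 0.00216, 0.0130 adjusted over 6 probe sets). The middle 18S probe set differed by 0.90 (exact permutation p = 0.00433, adjusted 0.0130), with controls up to 10.19 and knockdowns from 10.16. The 3′ 18S probe set differed by 0.63 (exact permutation p = 0.0693, adjusted 0.139). The 28S probe sets differed by 0.15, 0.04 and 0.07 from the 5′ end to the 3′ end, with exact permutation p of 0.357, 0.885 and 0.476. The test pools both controls and both shRNAs, and 18S and 28S did not move alike, so no single level of ribosomal RNA can be read from them.

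**Figure D5:**
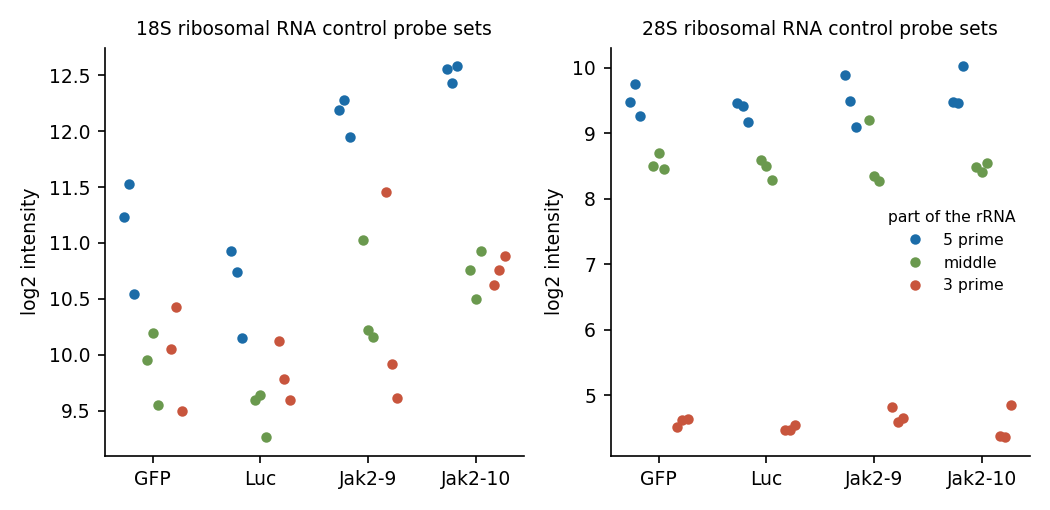
Log2 intensity of the 18S and 28S ribosomal RNA control probe sets on each array, with colours for the part of the RNA. At the 5′ 18S probe set all 6 knockdown arrays (11.95 to 12.58) lie above all 6 controls (10.15 to 11.53), while the 28S values overlap.

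Other genes of translation were counted from listed groups. Of 33 measured cytosolic translation factors none passed for knockdown or Jak2-10 (limma; 2 and 0 at unadjusted p under 0.05), and 1 passed for Jak2-9: EIF6, which keeps the large subunit from joining too early, rose by 0.41 (limma, adjusted p = 0.0455). For Jak2-9 this 1 of 33 stands against 3.07% of all genes. Of 23 genes of mitochondrial translation and its transcription, MTRF1, a mitochondrial release factor paralogue, fell by 0.60 with knockdown (limma, adjusted p = 0.00584) and by 0.65 with Jak2-9 (adjusted p = 0.0144). None of the 23 passed for Jak2-10. The 1 of 23 stands against 1.83% of all genes for knockdown and 3.07% for Jak2-9. At unadjusted p under 0.05 the same limma fits gave 5 of the 23 for knockdown, all lower. They gave 8 for Jak2-9, 4 of them lower, and 2 for Jak2-10, both lower. Median log2 fold changes of the 23 were -0.01, 0.03 and -0.07 for knockdown, Jak2-9 and Jak2-10. None of 26 ribosome assembly and nucleolar genes passed in any of the 5 comparisons (limma; 4 at unadjusted p under 0.05 for knockdown, 8 for Jak2-9, 1 for Jak2-10, 3 for Jak2-10 versus Jak2-9 and 0 for Luc versus GFP). Over all genes the unadjusted counts in the same order were 1942, 2891, 688, 1174 and 229 of 11940. Their median log2 fold change with knockdown was 0.04. Nor did any of 3 mitoribosomal proteins named without the prefix: DAP3, a GTP-binding small subunit protein, had 0.03 ± 0.07 (SE), GADD45GIP1, of the large subunit, 0.14 ± 0.09, and PTCD3, of the small subunit, -0.23 ± 0.08 (SE; limma, adjusted p = 0.168).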

How the data were processed

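The authors deposited 1 table of linear intensity values per probe set and array, made with RMA per the submitters' processing notes (version not given), from 20 ng of total RNA per sample amplified linearly per the labels' protocols. The design had assumed log2 values, so log2 was taken before any test. Of 22930 probe sets, 524 control probe sets were left out, 19415 had 1 gene symbol and 125 several. Each of 11940 genes was represented by its brightest probe set. A model with 4 group means over all 12 arrays was fitted with limma 3.58.1 (R 4.3.3), with Benjamini-Hochberg adjustment over all genes and a threshold of 0.05; intervals are at 95%. Single control probe sets were compared by exact two-sided permutation tests (Python 3.11.15, scipy 1.17.1). The fit was tested on simulated data. Named genes are those with the lowest p of each set and comparison, the 3 brightest and 3 dimmest, and listed genes; others are stated. The members and lists were chosen with earlier results of these data known. Alternatives tried were array weights, median centring or quantile normalization, a replicate block, an intensity trend, a filter on dim genes, the mean of all probe sets, fits limited to the arrays compared, and leaving out each array. Fits without both arrays of low weight, and of each probe set on its own, were added after seeing the data. The number of arrays limits the precision.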

Additional observations from a re-analysis of the deposited data

Results flagged for a closer look

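The control probe set for the 5′ end of 18S ribosomal RNA, which no gene test used, read 1.48 higher on the log2 scale on the mean of the 6 knockdown arrays than on that of the 6 control arrays. It is listed here because all knockdown arrays lay above all controls at a probe set outside the main measurement.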

How the results depend on the processing

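Of 327 alternative values for the counts and set medians, 294 stayed within 1.5 times the count or within 1 SD of the median, and 33 moved. With a gene's probe sets averaged, 3 cytosolic genes fell with knockdown, 2 with Jak2-9 and 1 with Jak2-10, and 3 mitochondrial genes rose with Jak2-9. Under it RPL10 (-0.354; limma, adjusted p = 0.00630) and RPL37A (-0.506 with knockdown, -0.72 with Jak2-9) reversed, since it averages in the dim probe sets that fell. For mitochondrial genes with knockdown, array weights gave 1 call, in a fit where 269 of all genes rose and 271 fell. In the main fit 52 of all genes rose and 166 fell. The fit without both low-weight arrays gave 1 mitochondrial call, where 119 of all genes rose and 177 fell. Leaving out single arrays gave 0 to 2 mitochondrial calls. For mitochondrial genes with Jak2-9, quantile normalization gave 0 calls, the arrays compared alone 0, no low-weight arrays 0, no dim genes 3, and an intensity trend 4. Leaving out single arrays gave 0 to 9 there, and 0 to 1 for cytosolic genes. With Jak2-9, 126 of all genes rose and 240 fell under quantile normalization, and 62 and 146 without the low-weight arrays. Counts over all genes under the other alternatives, averaged probe sets among them, are not given here. Cytosolic minus mitochondrial medians with Jak2-9 were -0.0744 with array weights, -0.0627 without both arrays, and -0.163 to -0.0627 leaving out single arrays. For Jak2-10 versus Jak2-9 single omissions gave -0.00124 to 0.118. Fallen probe sets with knockdown numbered 4 or more on leaving out any array, against 7. The cause was not tested.

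Whether replicate numbers pair the samples could not be settled from correlations of deviations from group means. These were -0.118 to 0.181 (median 0.0494) for the 18 pairs with the same number. For the 36 other pairs they were -0.199 to 0.165 (median -0.0158), and overlapping ranges cannot exclude a pairing. With the replicate block, 4 mitochondrial genes passed with Jak2-9, against 1 without it. Among them were MRPL4 (limma, adjusted p = 0.0450) and MRPS18A (0.0415). The block gave 0 calls for the other gene counts, as did the fit without it.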
